A study of Homo sapiens with 6 samples.

Results

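The CXC chemokines are small secreted proteins named after a pair of cysteines separated by 1 residue, and 10 of their genes were followed in prostate epithelial cells that carry a hairpin against an atypical protein kinase C. The members were CXCL1, CXCL2, CXCL3, CXCL5, CXCL6 and CXCL8, which attract neutrophils, CXCL10 and CXCL11, which interferons induce, and CXCL14 and CXCL16, which many epithelia make without stimulation. Each was found by its symbol among the probe sets annotated with exactly 1 gene. All 10 were measured, each by 1 probe set, out of 18404 named genes on the array. The cells were PrEC, an immortalized line of normal prostate epithelium grown in epithelial growth medium. In 3 samples they carried the hairpin shPKCi, aimed at the kinase that the labels write PKCl/i and whose human gene is PRKCI. In the other 3 samples they carried the hairpin shNT, the control line of the series. Both lines were immortalized, grown alike and collected 48 hours after plating with no added stimulus. The labels name 1 hairpin for each line, and whether a line came from 1 clone is not given in the sources used here.

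Chemokines guide leukocytes by binding receptors that couple to G proteins. The neutrophil-attracting members share a glutamate-leucine-arginine motif before the cysteines and signal through CXCR2, and CXCL6 and CXCL8 also through CXCR1. Their genes are classical targets of NF-kappaB, which interleukin-1, tumour necrosis factor and interleukin-17 activate in epithelium, and their messenger RNAs are short-lived through AU-rich elements. CXCL10 and CXCL11 bind CXCR3 on activated T cells and natural killer cells and are induced by interferons, with IRF1 and NF-kappaB among their activators. CXCL14 is made by resting epithelia and often lost in carcinomas, and CXCL16 is a membrane-anchored chemokine that binds CXCR6 and is released by the proteases ADAM10 and ADAM17.

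The sequences before the transcription starts show how alike some of these genes are, and they are given for the 9 members with an entry in the RefSeq promoter table of build GRCh38.p14. Positions are counted from the start of transcription, with +1 as the first transcribed base, on the strand of the gene. CXCL1 (chr4:73869263-73869392, plus strand), CXCL2 (chr4:74099196-74099325, minus strand) and CXCL3 (chr4:74038690-74038819, minus strand) are shown together because their promoters are close copies. Each line holds the 130 bases before the start, and capitals mark matches to the NF-kappaB consensus or to its 9-letter core GGAATTTCC.
CXCL1: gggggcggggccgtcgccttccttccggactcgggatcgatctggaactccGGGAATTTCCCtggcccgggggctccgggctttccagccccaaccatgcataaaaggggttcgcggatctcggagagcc
CXCL2: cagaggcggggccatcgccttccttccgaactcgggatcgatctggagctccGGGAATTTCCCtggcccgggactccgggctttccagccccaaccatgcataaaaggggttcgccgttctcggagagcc
CXCL3: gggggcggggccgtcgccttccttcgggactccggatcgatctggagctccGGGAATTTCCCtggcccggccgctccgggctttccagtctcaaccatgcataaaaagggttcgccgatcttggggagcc

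The second set holds CXCL5 (chr4:73998678-73998807, minus strand), CXCL6 (chr4:73836548-73836677, plus strand) and CXCL8 (chr4:73740439-73740568, plus strand), shown because 2 of them, CXCL5 and CXCL6, had the largest rises of the family. The stretch and the capitals are as above.
CXCL5: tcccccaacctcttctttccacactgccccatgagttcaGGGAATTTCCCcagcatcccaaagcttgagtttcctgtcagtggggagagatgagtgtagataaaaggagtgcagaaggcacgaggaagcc
CXCL6: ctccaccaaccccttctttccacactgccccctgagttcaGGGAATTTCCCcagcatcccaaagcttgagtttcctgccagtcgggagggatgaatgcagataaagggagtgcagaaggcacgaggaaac
CXCL8: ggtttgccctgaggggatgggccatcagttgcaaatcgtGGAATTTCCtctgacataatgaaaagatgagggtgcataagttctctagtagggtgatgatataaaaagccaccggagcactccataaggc

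The last set holds the members that fell: CXCL10 (chr4:76023598-76023727, minus strand), CXCL11 (chr4:76036071-76036200, minus strand) and CXCL14 (chr5:135578992-135579121, minus strand). The CXCL10 line runs from position -230 to -101, where its matches lie, and its capitals at the left end mark the interferon-response core GAAANNGAA. In CXCL14 no letters were marked, which says only that the marked motifs are not in this window.
CXCL10: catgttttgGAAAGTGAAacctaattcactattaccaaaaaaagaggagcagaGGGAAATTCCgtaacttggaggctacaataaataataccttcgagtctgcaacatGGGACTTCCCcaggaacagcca
CXCL11: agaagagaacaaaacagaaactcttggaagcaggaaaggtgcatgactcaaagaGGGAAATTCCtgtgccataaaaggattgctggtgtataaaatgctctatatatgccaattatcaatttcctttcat
CXCL14: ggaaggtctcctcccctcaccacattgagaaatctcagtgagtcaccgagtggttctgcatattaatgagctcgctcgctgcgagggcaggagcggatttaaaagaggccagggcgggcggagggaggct

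Over the whole 300-base windows, from 250 bases before to 50 after the start, the promoters of CXCL1 and CXCL3 were 86.6% identical over 292 aligned bases. Those of CXCL1 and CXCL2 were 85.1% identical over 269 bases, those of CXCL2 and CXCL3 83.6% over 281, and those of CXCL5 and CXCL6 84.2% over 298. The core GGAATTTCC was present, on either strand, in 8 of 9 member windows and in 0.461% of 35116 windows in the table. It overlaps the 10-letter NF-kappaB consensus, which was found in 7 of 9 member windows and in 11.3% of all windows. The core was chosen after these sequences had been read, and near-copies share their letters, so that the counts describe the family and are no test. GAAANNGAA was found in CXCL10, CXCL2 and CXCL3 and in 8.11% of all windows, and the AP-1 motif TGANTCA in CXCL8, CXCL11 and CXCL14 and in 7.71%. A match describes letters and not binding. Members that rose (CXCL1, CXCL2, CXCL5, CXCL6, CXCL8) and members that fell (CXCL10, CXCL11) both held the core, and so did CXCL3, which did not pass the test.

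**Figure D1:**
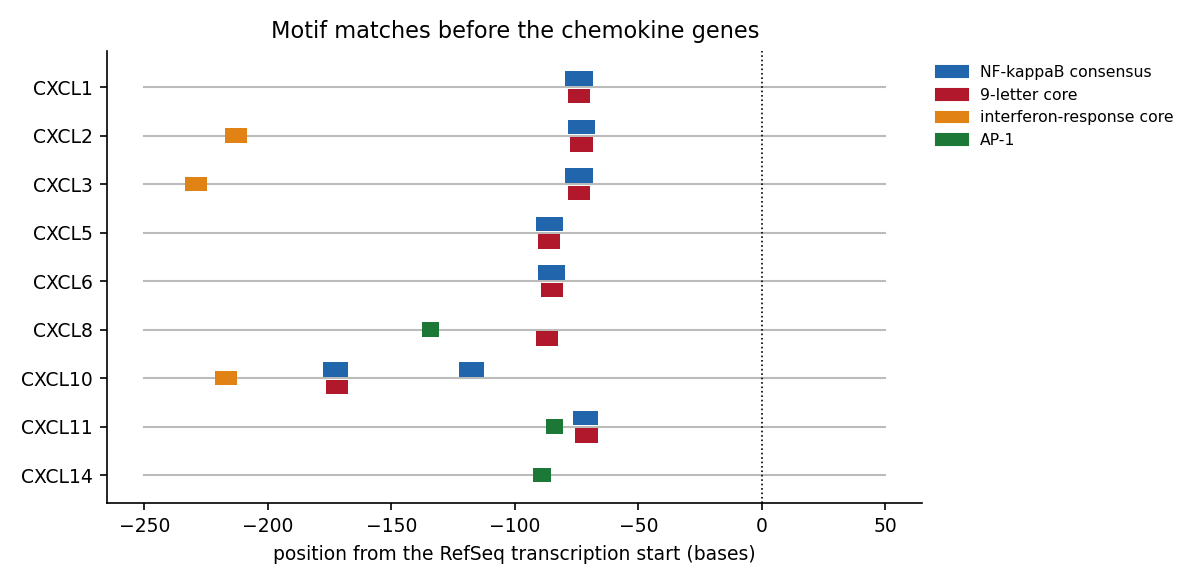
Motif matches in the promoter windows of 9 members, drawn by position in bases from the RefSeq transcription start (dotted line). Each coloured block is a match on either strand, and the core and consensus of NF-kappaB overlap between positions -91 and -67 in 6 of the windows, with the core alone in CXCL8 and a pair of consensus matches farther out in CXCL10.

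The hairpin's target was lower in every shPKCi array: PRKCI had intensities of 800.3, 810.2 and 753.8 in shPKCi and of 1635, 1428 and 1843 in shNT (log2 fold change -1.05, SE 0.11, adjusted p = 0.000279). Across the 18404 genes, 3406 differed between the lines at an adjusted p under 0.05, with 1758 higher (51.6% of those called) and 1648 lower in shPKCi. With each array centred on its median, 2170 were higher (62.2%) and 1321 lower. Replicate 2 of shNT differed most from the rest (correlations of 0.974 to 0.989 with each other array, where the remaining 5 had 0.982 to 0.996 with one another), and results that rest on it are given with and without it. Most basal epithelial markers were bright, with the basal keratin gene KRT5 at the 99.6th percentile of all genes by signal. KRT15, which fell, was the dimmest of them, at the 34.0th. The basal markers did not all hold between the lines. Of 7 genes listed as basal markers 3 fell, or 4 without shNT replicate 2. The 1 that rose was EPCAM, a general epithelial gene. The desmosomal cadherin gene DSG3 had a log2 fold change of -1.42 (limma adjusted p = 1.79e-05). The summed intensity of the 7 genes was 14545 to 15210 in shPKCi and 14825 to 17024 in shNT. EPCAM was part of each sum, at 4436, 4232 and 3854 in shPKCi and 2956, 2247 and 3123 in shNT. The 4 measured luminal markers summed to between 2572 and 2664 in shPKCi and between 1844 and 2523 in shNT, and 1 of them fell, with 2 others higher without shNT replicate 2. Most leukocyte markers were dim, with PTPRC the dimmest at the 1.17th percentile, but CD68 stood at the 78.9th. Their 7 measured genes summed to between 364 and 369 in shPKCi and between 392 and 415 in shNT. CD68 made up most of each sum, at 247, 243 and 238 in shPKCi and 291, 289 and 269 in shNT. None of the 7 passed limma's test with or without shNT replicate 2, and 2 were lower at an unadjusted p under 0.05. Of 6 fibroblast markers 1 fell, COL1A1 (log2 fold change -0.49, adjusted p = 0.0244), with sums of 214 to 238 in shPKCi and 262 to 310.0 in shNT. Of 4 endothelial markers 1 fell, with sums of 76.1 to 81.4 in shPKCi and 79.0 to 92.7 in shNT. The part of these markers in the chemokine changes was not tested.

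Neutrophil-attracting chemokine genes rose in shPKCi cells, while the interferon-induced pair and CXCL14 fell. Of the 6 neutrophil-attracting members, 5 rose, from 2.005-fold for CXCL1 to 6.55-fold for CXCL5, and CXCL3 did not pass. CXCL10 and CXCL11 fell 1.896-fold and 1.98-fold, and CXCL14 fell 1.68-fold, whereas CXCL16, with a log2 fold change of -0.32, did not pass. Thus 8 of 10 members differed between the lines at an adjusted p under 0.05, where 18.5% of all genes did. The rises, 5 of 10, stand beside 9.55% of genes called higher, and the falls, 3 of 10, beside 8.95% called lower. The values of the 3 shPKCi and the 3 shNT arrays did not overlap in the same 8 members, where 35.7% of all genes were without overlap. The median log2 fold change was 1.42 over the neutrophil-attracting members, -0.95 over the interferon-induced pair and -0.54 over the homeostatic pair, beside -0.02 over all genes. Without shNT replicate 2, 6 members were higher and 4 lower. In such bulk RNA, a change in the share of cells that make a transcript and a change in the amount per cell cannot be told apart.

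**Figure D2:**
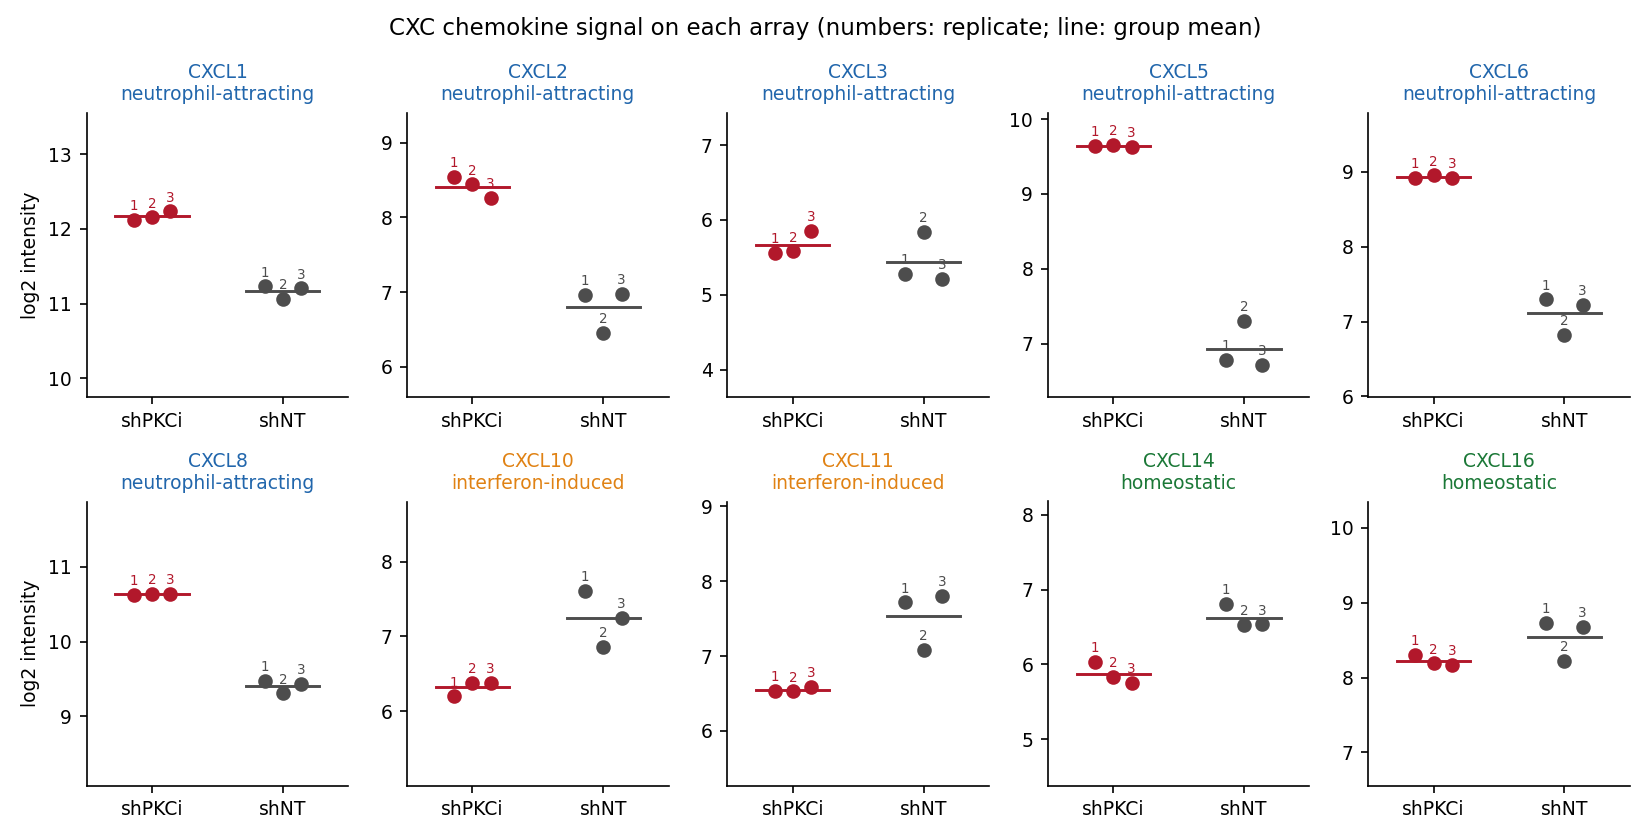
Signal of the 10 members on each array, as log2 of the intensity, with shPKCi on the left of each panel and shNT on the right, points numbered by replicate and lines at the group means. All panels span the same number of log2 units. The shPKCi points lie above all shNT points for CXCL1, CXCL2, CXCL5, CXCL6 and CXCL8 and below them for CXCL10, CXCL11 and CXCL14, and shNT replicate 2 reaches the shPKCi values for CXCL3 and CXCL16.

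CXCL5, a neutrophil attractant best known from epithelium, had the largest change of the family. Its intensities were 801, 806 and 792 in shPKCi and 110, 158 and 105 in shNT. The shPKCi values lay close together (SD 7.16 intensity units) and far above those of shNT, among which replicate 2 was the highest. On the log2 scale CXCL5 averaged 9.64 ± 0.01 in shPKCi and 6.93 ± 0.32 in shNT (SD, n = 3 each), 6.55-fold higher (log2 fold change 2.71, SE 0.15, adjusted p = 6.83e-06). This was the third largest rise among all genes, and CXCL5 stood at percentile 93.1 of signal in shPKCi, against percentile 64.0 in shNT. CXCL6, its closest relative in sequence, had intensities of 484, 496 and 483 in shPKCi and of 157, 113 and 150 in shNT. Every shPKCi value was above every shNT value, and here shNT replicate 2 was the lowest. CXCL6 was 3.52-fold higher (log2 fold change 1.81, SE 0.13, 95% interval 1.52 to 2.11, adjusted p = 2.53e-05), and the change ranked 12 from the top among all genes.

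CXCL8, or interleukin-8, the neutrophil attractant most often measured in human tissue, had intensities of 1583, 1594 and 1590 in shPKCi and of 711, 635 and 691 in shNT. The shPKCi arrays were nearly equal, with an SD of 5.84 intensity units, and lay above each shNT array. Its log2 fold change was 1.23 (SE 0.09, 95% interval 1.02 to 1.44, adjusted p = 3.33e-05), or 2.34-fold.

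CXCL1, CXCL2 and CXCL3 are the GRO chemokines, made by neighbouring copies of 1 ancestral gene. CXCL1 had intensities of 4460, 4555 and 4825 in shPKCi and of 2407, 2140 and 2361 in shNT. The groups were well apart, and CXCL1 rose 2.005-fold (log2 fold change 1.003, SE 0.10, adjusted p = 0.000139). CXCL2 had intensities of 372, 347 and 306 in shPKCi and of 125, 87.6 and 126 in shNT. It was 3.06-fold higher in shPKCi, with no overlap (log2 fold change 1.61, SE 0.15, adjusted p = 0.000122). CXCL3 was dim, at the 38.9th percentile of signal, with 47.3, 47.9 and 57.7 in shPKCi and 38.8, 57.3 and 37.0 in shNT. Its shNT replicate 2 lay among the shPKCi values and the other shNT arrays lay below them. The log2 fold change of CXCL3 was 0.22 with a 95% interval of -0.15 to 0.60 (adjusted p = 0.438). Without shNT replicate 2 it was 0.42 (SE 0.11, adjusted p = 0.028). The interval of CXCL2 was 1.27 to 1.96.

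CXCL10 and CXCL11, the ligands of CXCR3, fell together. CXCL10 had intensities of 73.3, 83.0 and 83.2 in shPKCi and of 195, 116 and 152 in shNT. Its shNT values were spread widely, yet the lowest, replicate 2, lay above every shPKCi value. CXCL10 averaged 6.32 ± 0.10 log2 units in shPKCi and 7.24 ± 0.38 in shNT (SD, n = 3 each), lower in shPKCi (log2 fold change -0.92, SE 0.17, adjusted p = 0.0048). CXCL11 had intensities of 92.9, 92.3 and 96.4 in shPKCi and of 210, 136 and 224 in shNT. The same array was the lowest of its group and the groups did not overlap. CXCL11 fell (log2 fold change -0.98, SE 0.17, adjusted p = 0.00363). Without shNT replicate 2 the log2 fold changes were -1.11 for CXCL10 (adjusted p = 0.000636) and -1.21 for CXCL11 (adjusted p = 6.92e-05). CXCL9, the other ligand of CXCR3, was dim, at the 4.13th percentile (log2 fold change -0.05, adjusted p = 0.788), and was named after its value had been seen.

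CXCL14, a chemokine of resting epithelium, had intensities of 65.5, 56.9 and 53.9 in shPKCi and of 112, 92.2 and 92.7 in shNT. All shPKCi values were lower than all shNT values. Its log2 fold change was -0.75 (SE 0.12, 95% interval -1.02 to -0.48, adjusted p = 0.00216). CXCL16, the membrane-anchored ligand of CXCR6, had 316, 292 and 289 in shPKCi and 426, 298 and 411 in shNT. Only shNT replicate 2 fell within the range of shPKCi. The log2 fold change of CXCL16 was -0.32 (SE 0.14, 95% interval -0.64 to -0.01), with an adjusted p of 0.156, and it was -0.49 without shNT replicate 2 (SE 0.09, adjusted p = 0.00557).

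**Figure D3:**
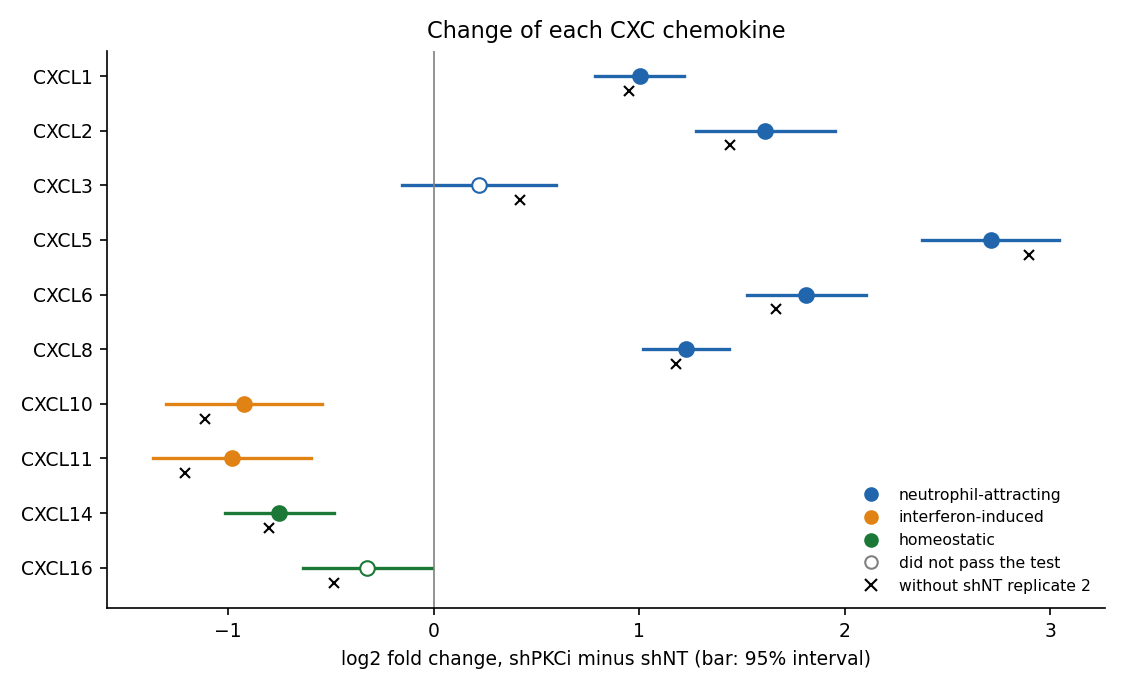
Log2 fold change of each member, shPKCi minus shNT, with its 95% interval from limma as a bar, filled where the adjusted p was under 0.05, and a cross for the value without shNT replicate 2. The 5 filled blue points run from 1.003 to 2.71 and the 3 filled orange and green points from -0.98 to -0.75; without the doubted array CXCL3 moves to 0.42 and CXCL16 to -0.49.

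The members varied less among the shPKCi arrays than among the shNT arrays. The SD of log2 values was larger in shNT for 10 of 10 members and for 65.9% of all genes. The median SD of the members was 0.07 in shPKCi and 0.29 in shNT, beside 0.10 in shPKCi and 0.14 in shNT over all genes. Much of this lay in shNT replicate 2, which differed from the mean of the other shNT arrays by a median of 0.50 log2 units in size over the members and 0.19 over all genes. The array was higher for CXCL3 and CXCL5, by 0.59 and 0.55, and lower for the other 8 members, by 0.68 for CXCL11, 0.57 for CXCL10, 0.52 for CXCL2, 0.49 for CXCL16 and 0.44 for CXCL6. Between shNT replicates 1 and 3 the largest gap was that of CXCL10, at 0.36, and it was at most 0.09 in the members other than CXCL10 and CXCL14.

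To set the sizes of the changes side by side, 8 pairs of members were compared by the difference of their log2 fold changes, with pairs chosen after the values had been seen. With 3 arrays in each group the smallest two-sided exact permutation p is 0.1, so that no pair could pass 0.05. The log2 fold change of CXCL5 was 0.90 above that of CXCL6 (SE 0.33, n = 3 each, exact p = 0.1, 0.114 adjusted over the 8 pairs) and 1.48 above that of CXCL8 (SE 0.23). That of CXCL2 was 0.61 above that of CXCL1 (SE 0.17) and 1.39 above that of CXCL3 (SE 0.41), or 1.02 above it without shNT replicate 2. CXCL14 and CXCL16 differed by -0.43 (SE 0.14). The changes of CXCL8 and CXCL10 were 2.15 log2 units apart (SE 0.18). Each of these 6 pairs, and that of CXCL1 and CXCL3 (0.78, SE 0.26), had the same exact p of 0.1. The signal of CXCL3 cannot be told from background, and whether this made its fold change smaller was not tested. The values of its pairs therefore do not show how far its transcript differed from those of CXCL1 and CXCL2. CXCL11 and CXCL10 differed by -0.06 (SE 0.15, exact p = 0.8).

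Pattern over the 6 arrays was compared by the root mean square difference of log2 values, after each gene was centred on its own mean. Between members it was smallest for CXCL1 and CXCL8, at 0.12, then for CXCL2 and CXCL6, at 0.13, and for CXCL10 and CXCL11, at 0.15. Among all genes the closest to CXCL1 were CSTF2, IER3 and ISG20L2, with differences of 0.0383 to 0.0434. The closest to CXCL8 were POLR1B, HBEGF and PHLDA1 (0.0398 to 0.0476), those to CXCL2 were TXNRD1, LYAR and POP1 (0.0809 to 0.102), and those to CXCL6 were CYP24A1, POP1 and SPRR2A (0.08 to 0.106). CXCL5 had no near match: NAV3, CALB1 and SLC6A14 lay 0.304 to 0.341 away. Closest to CXCL10 were FIG4, GSTA4 and FKBP9P1 (0.0871 to 0.106), to CXCL11 TTLL1, RPS27L and KITLG (0.0592 to 0.0775), and to CXCL14 GSTM3, GSDMC and RBM43 (0.0395 to 0.0573). All of these genes share the difference between the lines with the member they are near, and the array number is small.

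Of the receptor genes for these chemokines, most did not differ past the threshold. CXCR1 and CXCR2, the receptors of the neutrophil-attracting members, were at percentiles 9.37 and 8.87 of signal and did not pass (log2 fold change -0.08, adjusted p = 0.681 for CXCR1; 0.07, adjusted p = 0.726 for CXCR2). Neither did CXCR3 (-0.07, adjusted p = 0.709), CXCR4 (-0.39, adjusted p = 0.216) or CXCR6 (-0.32, adjusted p = 0.114). ACKR3, a scavenging receptor that takes up CXCL11 and CXCL12, fell by 0.43 (adjusted p = 0.013) at percentile 17.2 of signal. It was the 1 of 10 measured receptors that passed, beside 8.95% lower and 9.55% higher of all genes. The adjusted p of ACKR3 was 0.0507 without shNT replicate 3 and 0.0647 without shPKCi replicate 2. Of 7 other CXC chemokine genes none passed in limma's test, beside the same shares of all genes. Of these 7, 0 had an unadjusted p under 0.05, with log2 fold changes from -0.05 to 0.25. Of 23 measured CC, C and CX3C chemokine genes 1 rose and 1 fell, again beside those shares. XCL2 rose by 0.44 (adjusted p = 0.0454) and CCL28, a mucosal chemokine, fell by 0.47 (adjusted p = 0.0386). Both calls were lost without shNT replicate 2, and XCL2, at percentile 7.82 of signal, has a near-identical copy in XCL1. With the replicate number as a block the adjusted p of XCL2 was 0.059.

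Several genes of cytokines that can activate NF-kappaB were also higher in shPKCi, and their part in the chemokine rises was not tested. Of 24 measured genes of NF-kappaB signalling, 8 rose and 2 fell, beside 9.55% higher and 8.95% lower of all genes. The median log2 fold change of the list was 0.05, beside -0.02 for all genes. IL1B, encoding interleukin-1 beta, had intensities of 892, 845 and 890 in shPKCi and of 414, 356 and 422 in shNT, without overlap. It rose by 1.14 on the log2 scale (adjusted p = 8.68e-05), the epithelial interleukin-36 gene IL36G by 0.75 (adjusted p = 0.000589), IL1A by 0.83 (adjusted p = 0.00676) and the adaptor gene MYD88 by 0.52 (adjusted p = 0.00582). IL1RAP, which encodes the shared co-receptor of interleukin-1 and interleukin-36, fell by 0.64 (adjusted p = 0.00215). The feedback genes of NF-kappaB were less uniform. NFKBIZ, a nuclear partner of NF-kappaB at some chemokine genes, rose (log2 fold change 0.39, adjusted p = 0.0195), but it did not pass without shNT replicate 1, shNT replicate 3, shPKCi replicate 1 or shPKCi replicate 2 (adjusted p from 0.0608 to 0.0978). The inhibitor genes NFKBIA and TNFAIP3 did not pass (log2 fold change -0.18, adjusted p = 0.225 for NFKBIA; 0.19, adjusted p = 0.194 for TNFAIP3).

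Other mediators of neutrophil recruitment rose in 3 of 9 measured genes and fell in 1, or in 2 without shNT replicate 2. With all arrays, 9.55% of all genes were called higher and 8.95% lower. IL6 had intensities of 1300, 1282 and 1319 in shPKCi and of 551, 376 and 488 in shNT. All shPKCi values were well above shNT, and IL6 rose by 1.48 on the log2 scale (adjusted p = 0.00011). CSF3, which encodes the granulocyte growth factor G-CSF, rose by 0.77 (adjusted p = 0.00199) and the lipocalin gene LCN2 by 0.72 (adjusted p = 0.00176). S100A9, a subunit of calprotectin, fell by 0.59 (adjusted p = 0.00211). Of 8 measured genes whose proteins bind or control AU-rich messenger RNAs, 2 rose and none fell in limma's test, beside the same shares of all genes. At an unadjusted p under 0.05, 2 were lower. KHSRP, a decay factor, rose by 0.56 (adjusted p = 0.00347) and ZC3H12A, a ribonuclease that degrades inflammatory transcripts, by 0.39 (adjusted p = 0.0222). The rise of ZC3H12A did not pass without shNT replicate 1, shNT replicate 3, shPKCi replicate 1 or shPKCi replicate 2 (adjusted p from 0.0571 to 0.101). The decay factor gene ZFP36 did not pass (log2 fold change -0.23, adjusted p = 0.168).

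Of 21 measured genes of interferon signalling and its targets, 7 rose, 1 fell and 13 did not pass, beside 9.55% higher and 8.95% lower of all genes. The median log2 fold change of the list was 0.0039, beside -0.02 over all genes, and 2 fell without shNT replicate 2. IFIT1, an interferon-stimulated gene that binds foreign RNA, had intensities of 169, 186 and 221 in shPKCi and of 106, 69.1 and 73.9 in shNT. The groups were apart, and IFIT1 rose by 1.23 on the log2 scale (adjusted p = 0.00104), while the antiviral genes MX1 and IFIT3 rose by 0.86 and 0.84 (adjusted p = 0.000404 and 0.000785). IRF1, a transcription factor of the CXCL10 gene, rose by 0.64 (adjusted p = 0.00859) at the 37.9th percentile of signal. The 1 gene that fell was IFNGR2, a chain of the receptor for interferon-gamma, at 471, 521 and 538 in shPKCi and 754, 773 and 751 in shNT (log2 fold change -0.58, adjusted p = 0.00271).

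Of 16 measured genes for enzymes that release, trim or modify chemokines, 4 fell, 1 rose and 11 did not pass, beside 8.95% lower and 9.55% higher of all genes, and the median log2 fold change was -0.18. ADAM17 had intensities of 466, 494 and 464 in shPKCi and of 786, 763 and 849 in shNT, and it fell by 0.75 on the log2 scale without overlap (adjusted p = 0.00062). ADAM10, the main sheddase of CXCL16, did not pass (log2 fold change -0.30, adjusted p = 0.1), but it did without shNT replicate 2 (-0.40, adjusted p = 0.00944) and, with all 6 arrays, after cyclic loess (adjusted p = 0.0116), with array weights (adjusted p = 0.00833) and when dimmer genes were left out at the median signal (adjusted p = 0.0476). DPP4, which trims CXCL10 and CXCL11 at the amino end, fell by 0.80 (adjusted p = 0.00216), and the aminopeptidase gene ANPEP, whose product trims CXCL11, fell by 0.67 (adjusted p = 0.00242). The collagenase gene MMP1 was the 1 that rose, by 2.47 (adjusted p = 6.83e-06), with 308, 284 and 315 in shPKCi and 58.7, 44.0 and 62.1 in shNT. Only transcripts were measured, and neither the secreted chemokines nor the activity of these enzymes.

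**Figure D4:**
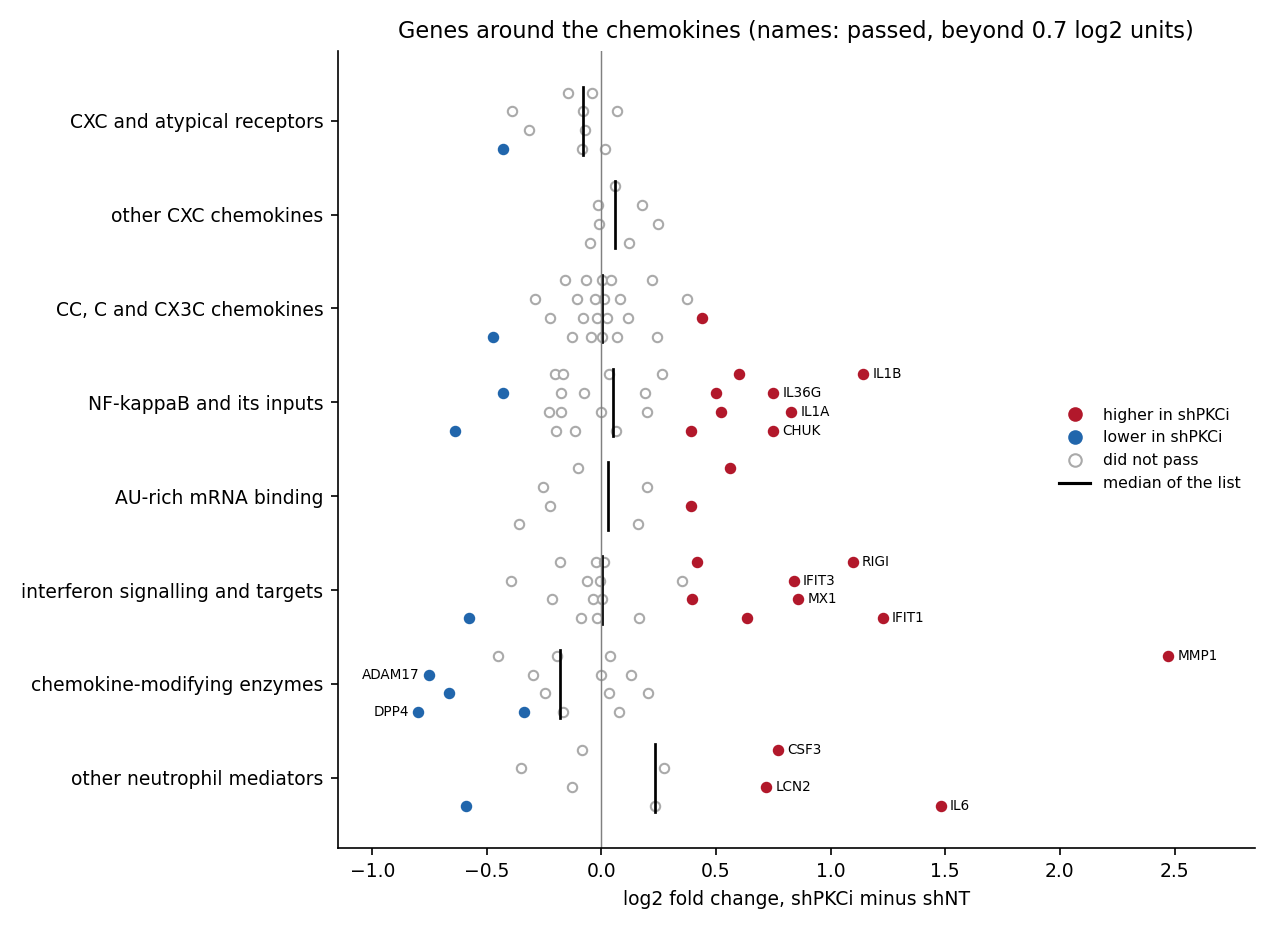
Log2 fold changes, shPKCi minus shNT, of the measured genes in 8 lists around the chemokines, with one point per gene, filled red or blue where the gene passed in that direction, and a black line at each list's median. Names mark called genes beyond 0.7 log2 units, and heights within a list only separate the points. MMP1, IL6, IFIT1 and IL1B lie far to the right, at 2.47, 1.48, 1.23 and 1.14, and the receptors and other chemokines that passed are ACKR3 at -0.43, CCL28 at -0.47 and XCL2 at 0.44.

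The chromosome 4 neighbourhood of the chemokine genes held changes of both signs. In the RefSeq gene order, 28 protein-coding genes run from CXCL8 to CXCL11, of which 8 are the members on this chromosome and 18 others were measured. Of those 18, 3 rose, none fell and 15 did not pass (limma adjusted p under 0.05), beside 9.55% higher and 8.95% lower of all genes. At an unadjusted p under 0.05, 2 were lower. The genes given here were named after their values had been seen. EREG, which encodes the EGF receptor ligand epiregulin, had intensities of 864, 957 and 905 in shPKCi and of 352, 349 and 363 in shNT. It rose by 1.36 on the log2 scale without overlap (adjusted p = 2.08e-05). ODAPH, dim at percentile 29.5 of signal, rose by 0.77 (adjusted p = 0.000824) and G3BP2 by 0.47 (adjusted p = 0.0173). The platelet chemokine genes PF4V1, PF4 and PPBP, which lie among CXCL6, CXCL1 and CXCL5, did not pass. Their log2 fold changes were 0.18 for PF4V1 (adjusted p = 0.254), -0.01 for PF4 (adjusted p = 0.97) and 0.25 for PPBP (adjusted p = 0.193). They were dimmer than ODAPH, at percentiles 22.6, 25.02 and 19.98 of signal, and their signal cannot be told from background. Whether the stretch between these members changed as a whole was therefore not tested. CXCL3 lies between CXCL5 and CXCL2, the members with log2 fold changes of 2.71 and 1.61. AREG and USO1 of this stretch were not analysed here.

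**Figure D5:**
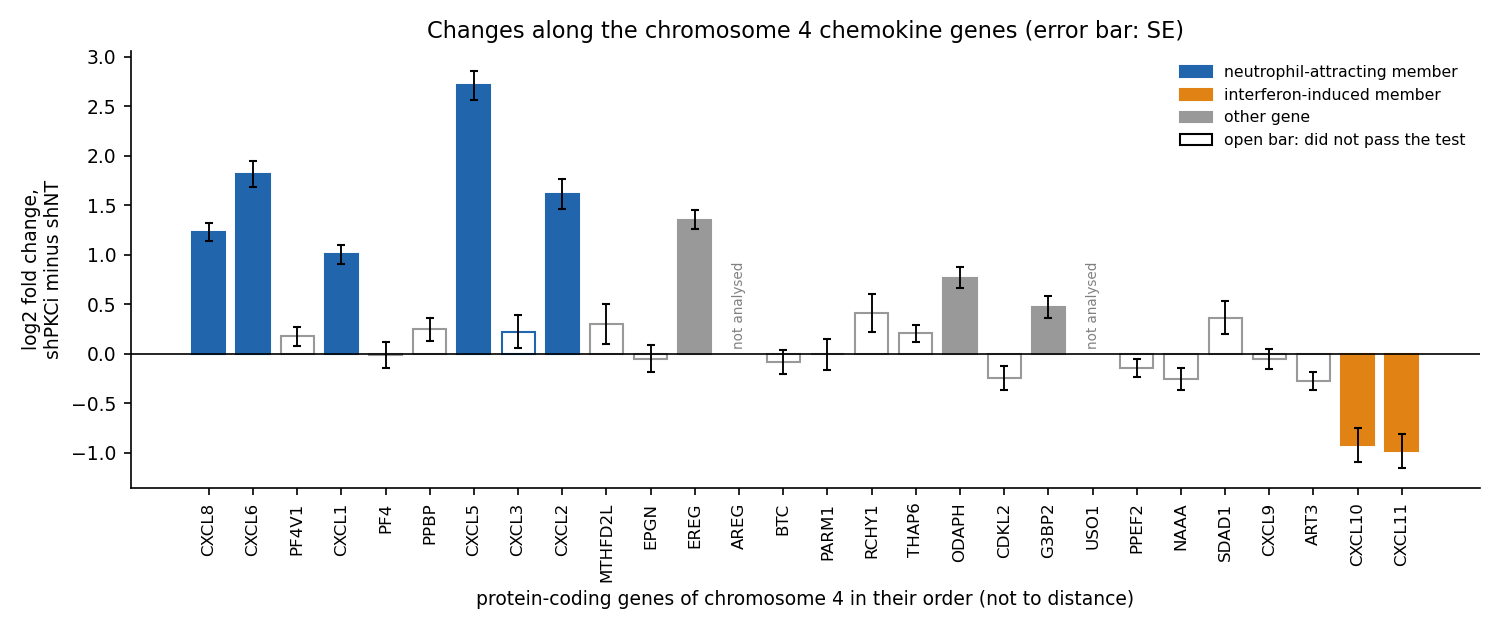
Log2 fold change, shPKCi minus shNT, of the 28 protein-coding genes from CXCL8 to CXCL11 in their order on chromosome 4, not drawn to distance, with bars from 0, SE as error bars, and open bars where the gene did not pass. The rises of CXCL8, CXCL6, CXCL1, CXCL5 and CXCL2 stand at the left with EREG at 1.36, and the falls of CXCL10 and CXCL11 at the right end.

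Close relatives limit what a probe set can tell. Transcripts of CXCL1, CXCL2 and CXCL3, and of CXCL5 and CXCL6, are similar enough that a probe for one may bind another, and the probe sequences were not used here.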

How the data were processed

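RNA of 6 samples was hybridised to 1 array each, and samples were grouped by their titles. The authors deposited 1 linear intensity per probe set, made with RMA per the submitters' processing notes; its version is not given in the sources used here. They were transformed to log2 with no pseudocount. Gene names came from the platform annotation: 19158 probe sets had 1 symbol, 1388 several and 11775 were not listed. For genes with several probe sets the brightest was used. Groups were compared with limma 3.58.1 in R 4.3.3 (lmFit, eBayes) over 18404 genes and 6 arrays with no covariate, and every adjusted p is limma's after Benjamini-Hochberg over all genes, with a threshold of 0.05. No filter on low values was applied, so every member was tested. The fit over all 32321 probe sets called the same number of members, 5 higher and 3 lower. The series calls the samples biological replicates, whose number limits the precision. The fit was tested on simulated data. Members, lists and the rule for named genes were chosen with earlier results of these data known. The rule took all members, 18 fixed genes and up to 4 genes of each list with the smallest adjusted p past the threshold, and the 3 genes nearest in pattern to each member that passed. Promoter sequences came from RefSeq, GRCh38.p14. Alternatives covered a replicate block, each array left out, normalization, filters, probe sets, variance models and thresholds. Values without shNT replicate 2 for pairs and lists were added after seeing the data.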

Additional observations from a re-analysis of the deposited data

How the results depend on the processing

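The 5 rises and 3 falls among the members were kept in number with a replicate block, after cyclic loess or median centring, with either filter on dim genes (CXCL3 fell below the median filter), with the mean of probe sets, with a trended robust variance and at an adjusted p under 0.01. Over the fits without 1 array, members called higher numbered 5 to 6 and members called lower 3 to 4, and array weights gave 5 and 4. Against a fold of 1.5 (treat), 4 members were higher and 0 lower (4 were lower at an unadjusted p under 0.05 in the test against 0): CXCL1 had an adjusted p of 0.0551, CXCL11 of 0.734, and CXCL10 and CXCL14 of 1. CXCL16 passed with array weights (log2 fold change -0.45, adjusted p = 0.00547). Over the fits without 1 array, called genes of the pathway lists ran from 16 to 21 higher and from 6 to 11 lower (22 and 10 with all arrays), and called genes overall from 997 to 1935 higher and from 1048 to 1959 lower. The fewest came without shPKCi replicate 2, with 1072 higher and 1057 lower without shPKCi replicate 1 and 1165 higher without shPKCi replicate 3. At an adjusted p under 0.01, 6 list genes were lower, and 870 genes were higher and 902 lower overall. Under treat, 3 list genes were higher and 0 lower, and 88 genes were higher and 180 lower overall. The log2 fold change of CXCR1 ranged from -0.14 to 0.0028 over the fits without 1 array, positive without shNT replicate 1, and passed in none. The replicate numbers were not shown to pair the arrays: deviations of same-numbered arrays correlated at 0.12, -0.06 and -0.18, and the block gave 1537 genes higher and 1441 lower. No detection calls were used, so the signal of a dim gene such as CXCL3 cannot be told from background.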
